A study of Mus musculus with 9 samples.

Results

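The complement genes described here are 9 members of the complement system: the C1q subunit genes C1qa, C1qb and C1qc, the central component gene C3, the alternative pathway genes Cfb and Cfp, the anaphylatoxin receptor genes C3ar1 and C5ar1, and the regulator gene Cd55. They were taken by name from the table of 55906 genes, and all 9 were found in it. RNA was sequenced in 9 libraries from wild-type BV2 cells, which are mouse microglia immortalized for culture. The LPS+Pilo group (3 libraries) received lipopolysaccharide, a bacterial activator of toll-like receptor signalling, together with an agent called Pilo in the labels. The LPS group (3 libraries) received lipopolysaccharide alone, and the Control group (3 libraries) is labelled with no treatment. No dose or time is stated in the labels, and no library of Pilo alone was analysed here. All libraries come from 1 immortalized line, and the labels call the replicates biological without saying whether they were separate cultures, so p-values measure the spread between these libraries.

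Complement is a cascade of plasma and tissue proteins that marks targets for removal. In the classical pathway C1q binds a target and activates the proteases C1r and C1s, which cleave C4 and C2. In the alternative pathway factor B, encoded by Cfb, joins deposited C3b to form a convertase, and properdin, encoded by Cfp, stabilizes it. Both routes cleave C3. In the brain microglia are a main source of C1q, and C3 fragments on synapses are recognized by microglial complement receptors.

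Levels are in TPM, a transcript abundance scaled by gene length and to the same total in every library, and can be compared between genes. Tests were made with limma on log2(TPM + 1) across the 11260 genes that reached 1 TPM in 3 or more libraries, and genes with a Benjamini-Hochberg adjusted p under 0.05 are called higher or lower. Between 10726 and 11123 genes reached 1 TPM per library, and the sequencing depth is unknown. Of 14 microglia and macrophage markers 12 were tested, with Cd68 at 976 to 1219 TPM, but the microglial genes P2ry12 (0 to 0.40 TPM) and Sall1 (0 to 0.01 TPM) were at or near 0. Aif1 (0.07 to 1.36 TPM), Cx3cr1 (1.04 to 4.57 TPM) and Tmem119 (2.15 to 3.05 TPM) were also low. The summed level of those 14 markers was 3107 to 3225 TPM in LPS+Pilo, 3418 to 3581 TPM in LPS and 4150 to 4291 TPM in Control, and the part of this in the results was not tested. The sum came mostly from Cd68, Tyrobp (657 to 1296 TPM), Fcer1g (632 to 941 TPM) and Trem2 (213 to 593 TPM), so it does not stand for every gene of the list. Of 5 neuronal markers Rbfox3, Snap25 and Syt1 were listed at 0, and the list's sum of 383 to 457 TPM in LPS+Pilo, 306 to 403 TPM in LPS and 164 to 367 TPM in Control came almost wholly from the tubulin gene Tubb3. Markers of hepatocytes, the main source of plasma complement, summed to at most 0.06 TPM in any library. LPS replicate 3 stood apart: it was the lowest of its group for 15 of the 19 complement genes tested (6 members and 13 others) and for 66.3% of all genes tested. Control replicate 2 was the lowest of its group for 14 of the 19 and for 60.1% of all genes. Control replicate 1 was the highest of that group for 13 of the 19 and for 62.4% of all genes.

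The C1q genes were low in these cells and lower still after LPS. C1qc, which encodes the C chain of C1q, was at 1.22, 0.52 and 1.03 TPM in LPS+Pilo, at 1.62, 0.74 and 0.89 TPM in LPS and at 3.88, 3.58 and 4.23 TPM in Control. C1qb, the B chain gene, was at 1.35, 1.05 and 1.84 TPM in LPS+Pilo, at 1.19, 1.62 and 1.29 TPM in LPS and at 2.57, 3.30 and 3.16 TPM in Control. C1qa, the A chain gene, was at 0.09, 0.10 and 0 TPM in LPS+Pilo, at 0.06, 0.24 and 0.15 TPM in LPS and at 1.01, 0.62 and 1.28 TPM in Control. For each of the 3 genes every Control library lay above every library of both treated groups, a separation found toward lower values for 13.1% of all tested genes in LPS against Control (24.2% in either direction) and for 15.6% in LPS+Pilo against Control (30.5% in either direction), whereas the LPS+Pilo and LPS libraries overlapped.

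In LPS against Control, C1qc fell by 1.25 ± 0.20 on the log2 scale (SE; adjusted p = 0.00552), to 1.08 ± 0.471 TPM in LPS against 3.90 ± 0.325 TPM in Control (SD, n = 3 each). C1qb fell by 0.76 ± 0.17 (adjusted p = 0.0246), to 1.37 ± 0.225 TPM in LPS against 3.01 ± 0.387 TPM in Control. The C1qb call rested on single libraries. Leaving out Control replicate 2 gave an adjusted p of 0.0811, leaving out Control replicate 3 gave 0.0993 and leaving out LPS replicate 1 gave 0.0887. It was 0.0573 with no filter on low values and 0.0547 with only the LPS and Control libraries fitted, and it ran from 0.0150 to 0.0993 over all alternatives. C1qa reached 1 TPM in only 2 libraries and was not tested. The difference in its mean log2(TPM + 1) was -0.77, and an exact two-sided permutation test gave p = 0.10, the smallest that 3 libraries against 3 allow. With no filter limma gave C1qa an adjusted p of 0.0173. Values near 1 TPM are compressed by the added 1, so these log2 differences understate the change: the ratio of mean TPM, LPS over Control, was 0.278 for C1qc, 0.454 for C1qb and 0.155 for C1qa.

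The 3 C1q chains assemble into 1 protein, and their genes stand side by side in the order C1qb, C1qc, C1qa in the RefSeq annotation. C1qa was the lowest of the 3 in every library. It supplied 0% to 5.99% of the summed C1q TPM in LPS+Pilo, 2.09% to 9.23% in LPS and 8.27% to 14.8% in Control. C1qc was the highest in each Control library and in LPS replicate 1, and C1qb in the other 5 libraries. Counting error at these low levels is unknown.

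The promoters of the called C1q genes are shown because both genes were lower together. Each is the 250 bases before the RefSeq start site (build GRCm38.p6, minus strand), with capitals marking the motif matches described next: chr4:136886201-136886450 for C1qb and chr4:136892915-136893164 for C1qc.
C1qb: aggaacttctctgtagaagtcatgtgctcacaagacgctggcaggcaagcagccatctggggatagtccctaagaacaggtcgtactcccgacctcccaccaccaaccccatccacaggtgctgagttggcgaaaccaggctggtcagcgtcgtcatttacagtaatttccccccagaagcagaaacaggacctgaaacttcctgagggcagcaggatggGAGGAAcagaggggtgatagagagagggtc
C1qc: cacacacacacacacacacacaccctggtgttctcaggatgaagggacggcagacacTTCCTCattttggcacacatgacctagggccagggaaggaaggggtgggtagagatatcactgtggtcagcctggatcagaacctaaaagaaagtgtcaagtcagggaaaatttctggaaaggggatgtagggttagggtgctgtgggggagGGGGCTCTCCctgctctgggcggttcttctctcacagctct

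The promoter windows of all members were searched on both strands, from 250 bases before to 50 bases after the start site, and 7 of the 9 members had one (C1qa and Cfb had none). PU.1 is the myeloid lineage factor, and its core letters GAGGAA occurred at 30 bases before the start site of C1qb and, on the opposite strand, at 193 bases before that of C1qc. They also occurred on the opposite strand within the first transcribed bases of Cfp. Of all 32851 promoter windows of this length 28.3% held a PU.1 match. The NF-kB consensus occurred in 1 member, C1qc, at 41 bases before the start site, and in 8.46% of all windows. No member held the STAT motif TTCNNNGAA (8.30% of all windows) or the interferon-stimulated response element (3.44%). A match is a match of letters only, and no matches overlapped in the printed stretches.

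**Figure D1:**
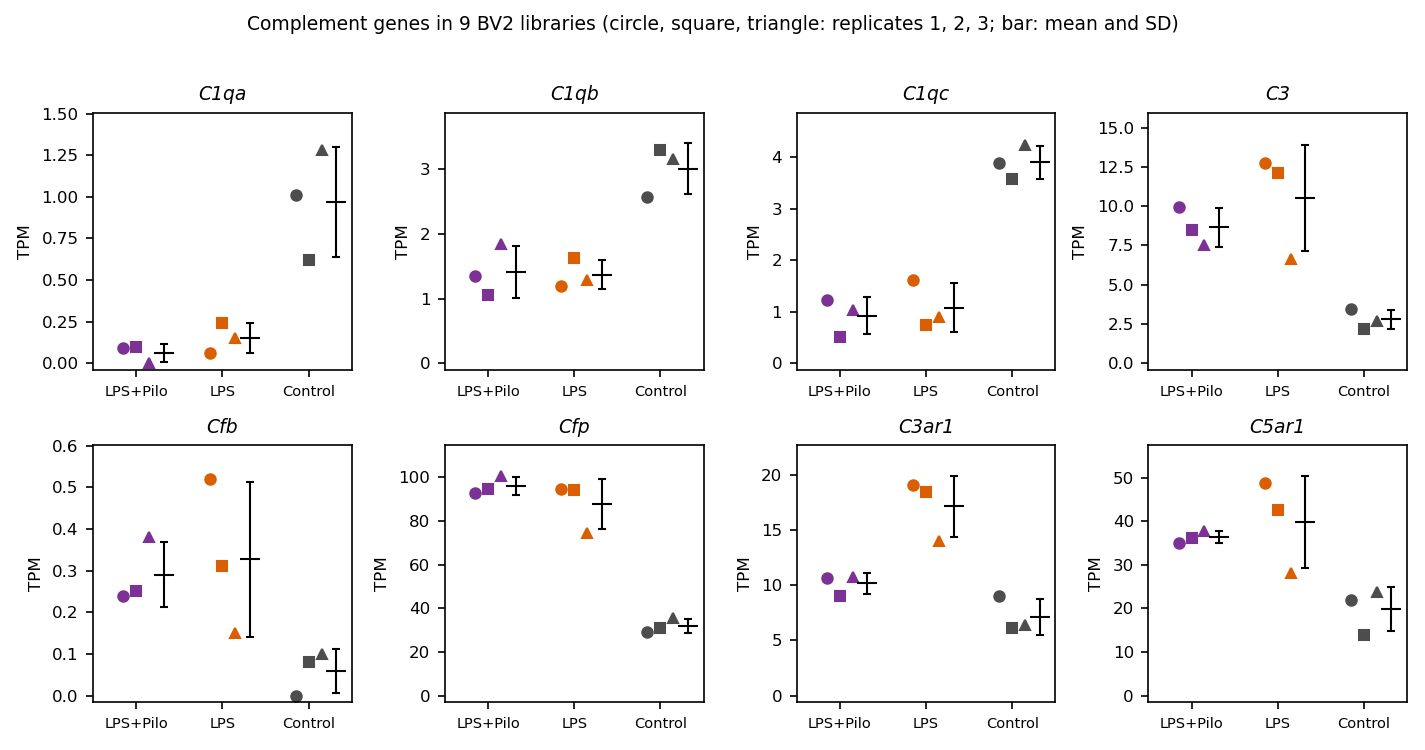
Level in TPM (vertical axes, each from 0) of 8 complement genes in the LPS+Pilo, LPS and Control libraries. Points are single libraries, with circle, square and triangle for replicates 1, 2 and 3, and bars give mean and SD (n = 3). The C1q genes were highest in Control; the other 5 genes were lowest in Control, and C3ar1 was lower in each LPS+Pilo library (9.06 to 10.79 TPM) than in any LPS library (13.99 to 19.07 TPM). Cd55, listed at 0 in all libraries, is not drawn.

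C3 and properdin moved the other way. C3 was at 9.92, 8.50 and 7.51 TPM in LPS+Pilo, at 12.77, 12.14 and 6.63 TPM in LPS and at 3.46, 2.21 and 2.70 TPM in Control. Cfp had the highest level of the 9 members, at 92.67, 94.82 and 100.73 TPM in LPS+Pilo, at 94.52, 94.13 and 74.41 TPM in LPS and at 29.17, 30.79 and 35.46 TPM in Control. Cfb was low, at 0.24, 0.25 and 0.38 TPM in LPS+Pilo, at 0.52, 0.31 and 0.15 TPM in LPS and at 0, 0.08 and 0.10 TPM in Control. For all 3 genes the treated libraries lay above every Control library, as for 11.2% of all tested genes in LPS against Control and 14.9% in LPS+Pilo against Control, and LPS replicate 3 was the lowest of its group.

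In LPS against Control, C3 rose by 1.57 ± 0.24 on the log2 scale (adjusted p = 0.00374), to 10.5 ± 3.38 TPM in LPS against 2.79 ± 0.630 TPM in Control. Cfp rose by 1.43 ± 0.12 (adjusted p = 8.53e-05), to 87.7 ± 11.5 TPM in LPS against 31.8 ± 3.27 TPM in Control. Both calls held in all 17 alternatives. Over these the differences ran from 1.41 to 1.84 for C3 and from 1.31 to 1.54 for Cfp. Without LPS replicate 3 the differences were 1.84 for C3 and 1.54 for Cfp. Cfb did not reach the filter and was not tested. Its difference was 0.32 on the log2(TPM + 1) scale, with an exact two-sided permutation p = 0.10, and with no filter limma gave an adjusted p of 0.167.

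The C3 and Cfp promoters are shown because these genes had the largest increases among the tested members: chr17:57228137-57228386 for C3 and chrX:20931556-20931805 for Cfp (GRCm38.p6, minus strand, 250 bases before the start site).
C3: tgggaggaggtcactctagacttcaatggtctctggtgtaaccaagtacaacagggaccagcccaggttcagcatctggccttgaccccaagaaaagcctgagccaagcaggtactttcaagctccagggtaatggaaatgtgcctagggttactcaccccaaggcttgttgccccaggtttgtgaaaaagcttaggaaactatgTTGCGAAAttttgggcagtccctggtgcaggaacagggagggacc
Cfp: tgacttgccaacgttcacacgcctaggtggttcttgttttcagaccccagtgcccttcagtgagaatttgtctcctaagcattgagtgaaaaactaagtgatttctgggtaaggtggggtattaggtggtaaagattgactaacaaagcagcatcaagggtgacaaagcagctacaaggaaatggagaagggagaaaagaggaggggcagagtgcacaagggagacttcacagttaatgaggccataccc

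The C3 stretch held 1 match, in capitals, to the C/EBP letters TTGCNNAA, 45 bases before the start site. C/EBP factors are inducible regulators of acute-phase genes. The same letters occurred in 10.8% of all windows and in no other member. The Cfp stretch held none of the 6 motifs searched.

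Set side by side, the called C1q genes, C1qb and C1qc, fell with LPS while C3 and Cfp rose. The contrast is one of C1q and was not shown for other classical pathway genes. C1ra and C2, which act after C1q, did not pass and had mean TPM ratios, LPS over Control, of 1.53 and 1.37. The C2 ratio rested on LPS replicate 1 at 1.89 TPM. LPS replicates 2 and 3 were at 0.66 and 0.76 TPM, against 0.71 to 0.86 TPM in Control. Whether C1q responded differently from these 2 genes was not tested. The summed level of C1qa, C1qb and C1qc was 2.66, 1.67 and 2.87 TPM in LPS+Pilo, 2.87, 2.60 and 2.33 TPM in LPS and 7.46, 7.50 and 8.67 TPM in Control. The summed level of C3, Cfb and Cfp was 103, 104 and 109 TPM in LPS+Pilo, 108, 107 and 81.2 TPM in LPS and 32.6, 33.1 and 38.3 TPM in Control. The second sum was therefore 37.8 to 62.0 times the first in LPS+Pilo, 34.8 to 41.0 times in LPS and 4.37 to 4.41 times in Control. Properdin made up most of the second sum, which also holds C3, a component of both routes. With C3 alone the ratio to summed C1q was 2.62 to 5.09 in LPS+Pilo, 2.85 to 4.67 in LPS and 0.295 to 0.464 in Control. These sums are descriptions of chosen genes and carry no test. In a bulk library a smaller share of expressing cells and less RNA per cell cannot be told apart.

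**Figure D2:**
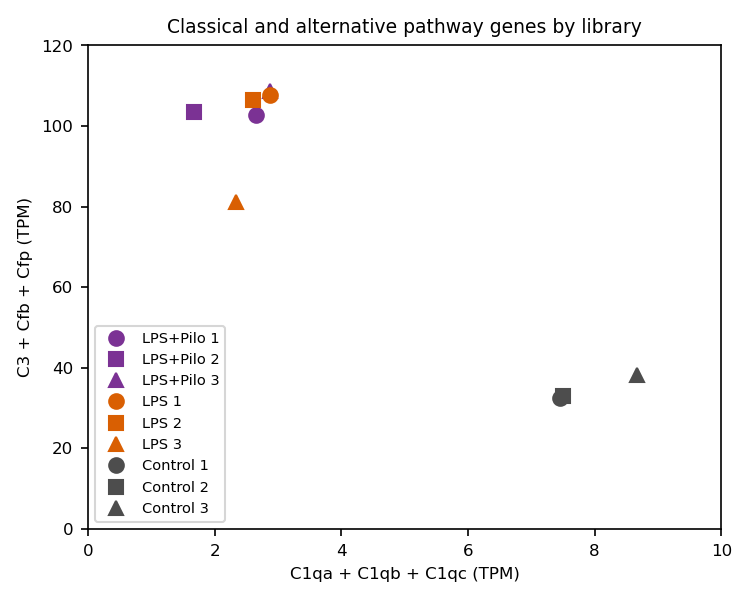
Summed TPM of C3, Cfb and Cfp (vertical axis) against summed TPM of C1qa, C1qb and C1qc (horizontal axis), 1 point per library, coloured by group with a marker for each replicate. The 3 Control libraries lie at 7.46 to 8.67 TPM of C1q and 32.6 to 38.3 TPM of C3, Cfb and Cfp together, apart from the 6 treated libraries, which share 1 region of the plot.

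The anaphylatoxin receptor genes also rose with LPS. C3ar1 encodes the receptor for C3a, the small fragment released when C3 is cleaved. It was at 10.69, 9.06 and 10.79 TPM in LPS+Pilo, at 19.07, 18.43 and 13.99 TPM in LPS and at 9.03, 6.10 and 6.36 TPM in Control, with no overlap between any 2 groups. Of all tested genes 24.2% separated LPS from Control, 12.2% LPS+Pilo from LPS and 30.5% LPS+Pilo from Control, and C3ar1 was not called in LPS+Pilo against LPS (adjusted p = 0.400). C5ar1, which encodes the receptor for C5a, was at 34.94, 36.22 and 37.84 TPM in LPS+Pilo, at 48.74, 42.52 and 28.17 TPM in LPS and at 21.92, 13.99 and 23.65 TPM in Control. Both treated groups lay above Control, while LPS replicate 3 was below and LPS replicates 1 and 2 were above all LPS+Pilo libraries.

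In LPS against Control, C3ar1 rose by 1.16 ± 0.17 (adjusted p = 0.00357), to 17.2 ± 2.77 TPM in LPS against 7.16 ± 1.62 TPM in Control, and kept its call in all 17 alternatives. C5ar1 rose by 0.97 ± 0.22 (adjusted p = 0.0294), to 39.8 ± 10.5 TPM in LPS against 19.9 ± 5.15 TPM in Control. The C5ar1 call was lost in 8 of 17 alternatives, with adjusted p from 0.00836 to 0.106. It was lost without Control replicate 2 (0.0741), LPS replicate 1 (0.101), LPS replicate 2 (0.106) and each LPS+Pilo library (0.0506, 0.0525 and 0.0524 without replicates 1, 2 and 3). It was also lost with no filter (0.0796) and with only the LPS and Control libraries fitted (0.0958). Without LPS replicate 3, its lowest LPS library, C5ar1 differed by 1.19 (adjusted p = 0.00836).

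Receptor promoters are shown for the same window: chr6:122856158-122856407 for C3ar1 and chr7:16259339-16259588 for C5ar1 (GRCm38.p6, minus strand, 250 bases before the start site).
C3ar1: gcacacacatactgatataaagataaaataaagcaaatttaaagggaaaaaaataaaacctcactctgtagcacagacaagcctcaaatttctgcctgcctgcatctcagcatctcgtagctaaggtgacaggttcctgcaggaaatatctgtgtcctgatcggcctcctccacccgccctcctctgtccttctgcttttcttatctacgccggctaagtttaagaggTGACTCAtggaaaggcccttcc
C5ar1: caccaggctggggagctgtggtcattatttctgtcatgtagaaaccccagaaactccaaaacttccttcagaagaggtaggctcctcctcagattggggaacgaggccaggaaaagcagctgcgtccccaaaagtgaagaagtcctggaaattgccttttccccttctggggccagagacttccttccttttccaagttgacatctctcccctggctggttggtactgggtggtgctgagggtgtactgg

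The C3ar1 stretch held the AP-1 letters TGANTCA, in capitals, 22 bases before the start site, and 7.81% of all windows held a match. No other member did. The C5ar1 window held none of the 6 motifs.

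Cd55 encodes decay-accelerating factor, a membrane protein that breaks up C3 convertases. It was listed at 0 in all 9 libraries, and so was its neighbouring paralog Cd55b. None of 24 genes used by every cell was listed at 0, but whether reads of Cd55 or Cd55b were assigned to assembled transcripts without a gene name cannot be told from the table. Cr1l, which encodes Crry, a rodent regulator of C3 convertases, was at 13.79 to 16.72 TPM in LPS+Pilo, at 14.26 to 19.65 TPM in LPS and at 10.96 to 14.85 TPM in Control. It did not pass in LPS against Control (0.39, 95% interval 0.05 to 0.74, adjusted p = 0.166).

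In all, 6 of the 9 members were tested in LPS against Control. Of these 4 were higher (C3, Cfp, C3ar1 and C5ar1), 2 were lower (C1qb and C1qc) and 0 failed to pass, where 7.76% of all tested genes were called (4.12% higher, 3.64% lower). C1qc reached 1 TPM in 6 libraries: all Control libraries, LPS replicate 1 and LPS+Pilo replicates 1 and 3. The other tested members reached it in all 9 libraries. The members were chosen with earlier results of these data known, so this count is a description. The median difference of the 6 was 1.06 on the log2 scale, against 0.07 over all tested genes. The calls over all genes numbered 464 higher and 410 lower, but 518 higher and 871 lower with every library shifted to the same median and 614 higher and 902 lower with quantile normalization. Shifting to the same median moved the median of all genes to -0.05. The 6 members kept their directions and calls under both scalings.

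**Figure D3:**
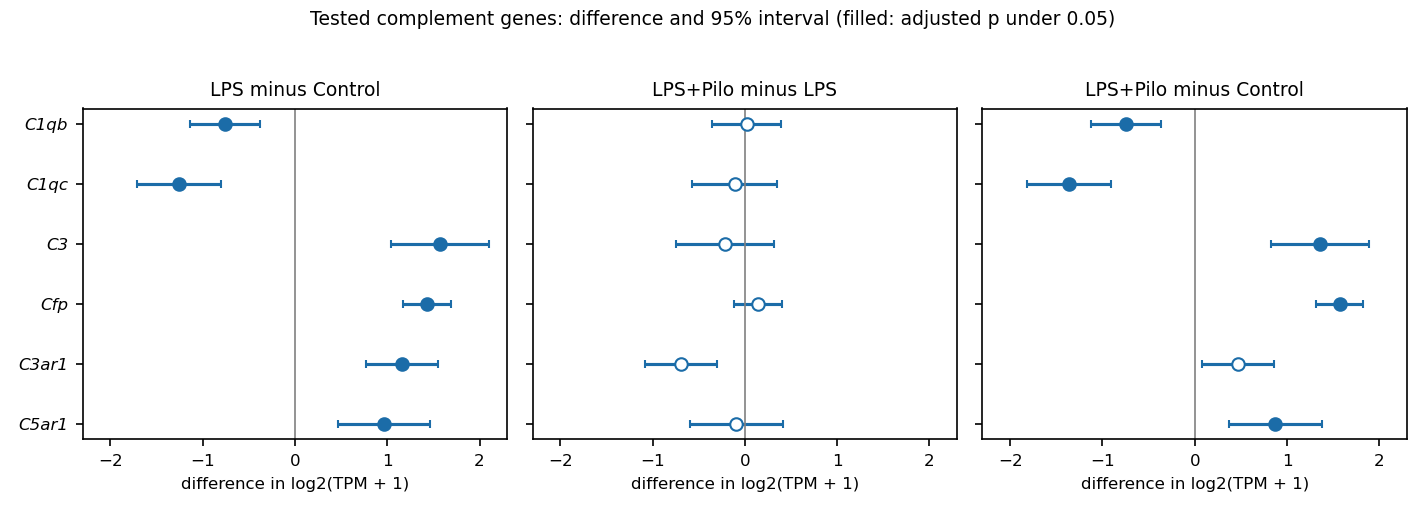
Difference in log2(TPM + 1) (horizontal axes) for the 6 tested members in the 3 comparisons, with 95% confidence intervals from limma. Filled points have an adjusted p under 0.05. C3, Cfp, C3ar1 and C5ar1 lie right of 0 and C1qb and C1qc left of 0 in LPS minus Control, and in LPS+Pilo minus LPS only the interval of C3ar1 leaves out 0, with no point filled.

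Adding Pilo to LPS gave no called member: 0 of 6 passed in either direction, where 0.0444% of all tested genes (5 of 11260) were called, 0.00888% higher and 0.0355% lower. C3ar1 was the 1 member with an unadjusted p under 0.05 in limma. Its level was 10.2 ± 0.971 TPM in LPS+Pilo against 17.2 ± 2.77 TPM in LPS, a difference of -0.69 ± 0.17 on the log2 scale (95% interval -1.08 to -0.30, unadjusted p = 0.00285, adjusted p = 0.400). All 3 LPS+Pilo libraries were below all 3 LPS libraries, as was so for 6.63% of all tested genes (5.58% separated the other way, 12.2% in all). The adjusted p stayed between 0.101 and 1.00 over 17 alternatives, and the difference between -0.82 and -0.61. Without LPS replicate 3 it was -0.82 (adjusted p = 0.312).

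The libraries of LPS+Pilo and LPS overlapped for the other 5 tested members. C3 was at 8.64 ± 1.21 TPM in LPS+Pilo and 10.5 ± 3.38 TPM in LPS (-0.22, 95% interval -0.75 to 0.32). Without LPS replicate 3 that difference was -0.49 (adjusted p = 0.436). Cfp was at 96.1 ± 4.17 TPM in LPS+Pilo and 87.7 ± 11.5 TPM in LPS (0.14, 95% interval -0.12 to 0.40). C5ar1 was at 36.3 ± 1.45 TPM in LPS+Pilo and 39.8 ± 10.5 TPM in LPS (-0.09, 95% interval -0.60 to 0.41). C1qb differed by 0.02 (95% interval -0.36 to 0.40) and C1qc by -0.11 (95% interval -0.57 to 0.35). Of the untested members C1qa differed by -0.11 and Cfb by -0.03, with exact permutation p of 0.30 and 0.80. These intervals leave room for changes of either sign, so the values do not show that Pilo left these genes alone.

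LPS+Pilo against Control shares its Control libraries with the first comparison and its LPS+Pilo libraries with the second. Here 3 members were higher, 2 were lower and 1 did not pass, where 10.2% of all tested genes were called (4.85% higher, 5.30% lower). Cfp rose by 1.57 ± 0.12 (adjusted p = 4.15e-05), C3 by 1.35 ± 0.24 (0.00654) and C5ar1 by 0.87 ± 0.22 (0.0373). C1qc fell by 1.36 ± 0.20 (adjusted p = 0.00298) and C1qb by 0.74 ± 0.17 (0.0220). C3ar1 did not pass: it was at 10.2 ± 0.971 TPM in LPS+Pilo and 7.16 ± 1.62 TPM in Control, a difference of 0.47 ± 0.17 (95% interval 0.08 to 0.86, adjusted p = 0.132). It passed under both scalings (0.0250 with quantile normalization, 0.0248 with equal medians) and without Control replicate 1 (0.0432), with a range of 0.0248 to 0.331.

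Single libraries decided some of these calls. Without Control replicate 2, LPS+Pilo replicate 1 or LPS+Pilo replicate 2, only 3 members passed. C5ar1 was lost without Control replicate 2 (0.0877), LPS replicate 2 (0.0531) or any LPS+Pilo library (0.0935, 0.109 and 0.115 without replicates 1, 2 and 3), and with no filter (0.0975). Its adjusted p ran from 0.0121 to 0.115. C1qb was lost without Control replicate 2 (0.0685), Control replicate 3 (0.0846), LPS+Pilo replicate 1 (0.0744) or LPS+Pilo replicate 2 (0.0886), and with no filter (0.0512). Its adjusted p ran from 0.0136 to 0.0886.

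The rest of the system was read from a list of 49 further complement genes, of which 13 were tested. In LPS against Control 2 rose, 0 fell and 11 did not pass, where 7.76% of all tested genes were called (4.12% higher, 3.64% lower), with a median difference of 0.13 against 0.07 over all tested genes. Itgam, which encodes the alpha chain of complement receptor 3, a receptor for C3 fragments, rose by 1.58 ± 0.26 (adjusted p = 0.00608). It was at 32.83, 30.23 and 27.93 TPM in LPS+Pilo, at 42.52, 42.19 and 21.46 TPM in LPS and at 14.22, 8.40 and 10.08 TPM in Control. Clu, which encodes clusterin, a fluid-phase inhibitor of the membrane attack complex, rose by 1.37 ± 0.13 (adjusted p = 2.55e-04). It was at 16.47, 16.01 and 17.81 TPM in LPS+Pilo, at 16.04, 15.82 and 12.76 TPM in LPS and at 4.49, 5.49 and 5.45 TPM in Control. For both genes all treated libraries lay above all Control libraries, as for 11.2% of all tested genes in LPS against Control and 14.9% in LPS+Pilo against Control.

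The related integrin genes did not pass. Itgb2, the beta chain gene shared by complement receptors 3 and 4, differed by 0.32 (95% interval 0.04 to 0.60, adjusted p = 0.160), at 31.4 ± 4.35 TPM in LPS and 24.9 ± 2.28 TPM in Control. Itgax, the alpha chain gene of complement receptor 4, differed by -0.45 (95% interval -0.91 to 0.01, adjusted p = 0.228), at 3.91 ± 1.16 TPM in LPS and 5.60 ± 0.794 TPM in Control. The difference between these genes' responses was not tested.

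In LPS+Pilo against LPS 0 of the 13 passed, and 1 was lower at an unadjusted p under 0.05 in limma. That gene was Calr, which encodes calreticulin, an endoplasmic reticulum chaperone that also binds C1q. It was at 490.7, 469 and 489 TPM in LPS+Pilo, at 666, 621 and 569 TPM in LPS and at 789.6, 700.0 and 718 TPM in Control, and no 2 groups overlapped. Separation toward lower values was found for 6.63% of all tested genes in LPS+Pilo against LPS, 13.1% in LPS against Control and 15.6% in LPS+Pilo against Control. The difference was -0.35 ± 0.08 in LPS+Pilo against LPS (adjusted p = 0.364). In LPS+Pilo against Control 2 of the 13 rose, 2 fell and 9 did not pass, where 10.2% of all tested genes were called (4.85% higher, 5.30% lower). Itgam (1.42 ± 0.26, adjusted p = 0.00822) and Clu (1.53 ± 0.13, adjusted p = 9.40e-05) rose. Calr fell by 0.60 ± 0.08 (adjusted p = 0.00182), and Lrp1, which encodes a large endocytic receptor that works with calreticulin, fell by 0.75 ± 0.17 (adjusted p = 0.0241).

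Lrp1 was at 64.36, 61.94 and 62.35 TPM in LPS+Pilo, at 92.84, 98.11 and 61.83 TPM in LPS and at 124.4, 89.68 and 107.8 TPM in Control. All LPS+Pilo libraries were below all Control libraries, and LPS replicate 3 was below all of them. The Lrp1 call was lost without Control replicate 1 (0.0598) or 3 (0.0791), without any LPS+Pilo library (0.0687, 0.0833 and 0.0781 without replicates 1, 2 and 3) and with no filter (0.0673), with a range of 0.00162 to 0.0833.

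**Figure D4:**
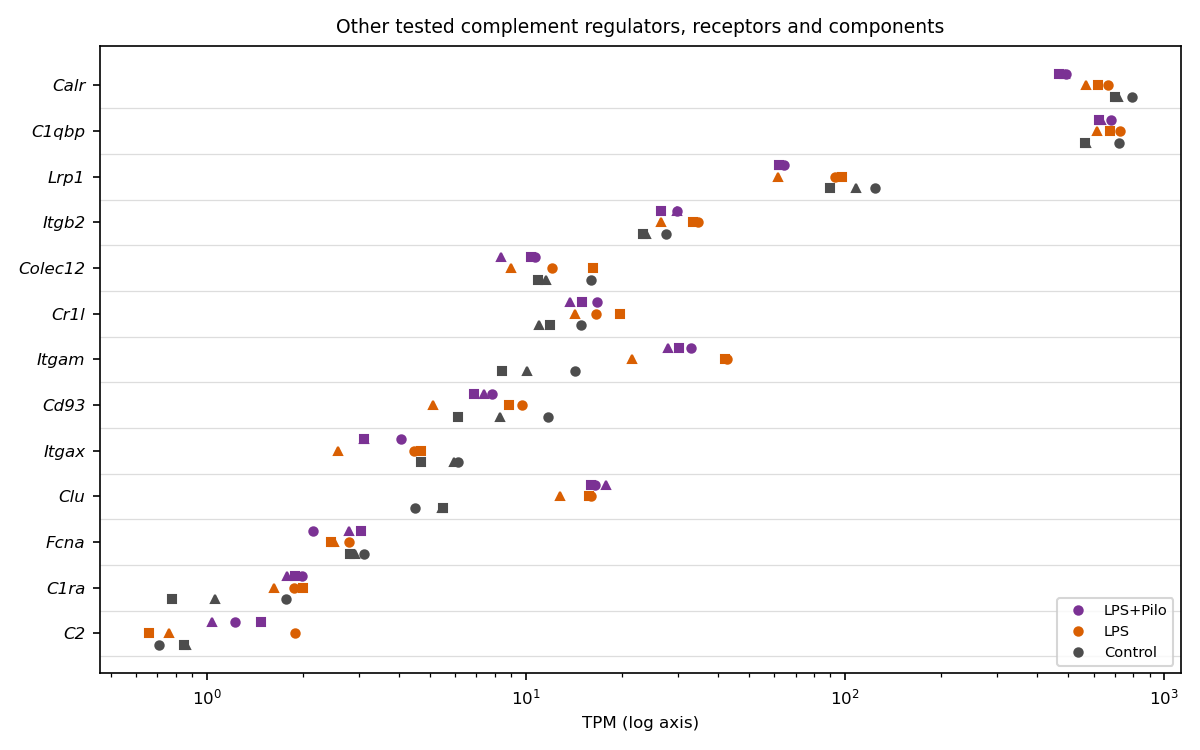
Level in TPM (log axis) of the 13 further complement genes tested, ordered by their Control mean, with LPS+Pilo, LPS and Control points from top to bottom within each gene and circle, square and triangle for replicates 1, 2 and 3. Itgam and Clu lie to the right in both treated groups, and Calr lies lowest in LPS+Pilo (469 to 490.7 TPM) and highest in Control (700.0 to 789.6 TPM).

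Most of the steps between C1q and C3 were little expressed. Of the C1 protease genes C1ra was at 1.78 to 1.99 TPM in LPS+Pilo, 1.63 to 2.00 TPM in LPS and 0.78 to 1.77 TPM in Control, and did not pass in LPS against Control (0.39, adjusted p = 0.237) or in LPS+Pilo against Control (0.41, unadjusted p = 0.0437, adjusted p = 0.193). C1s1 was at most 0.05 TPM. C2 was at 1.04 to 1.48 TPM in LPS+Pilo, 0.66 to 1.89 TPM in LPS and 0.71 to 0.86 TPM in Control (0.17 in LPS against Control, adjusted p = 0.665; 0.31 in LPS+Pilo against Control, adjusted p = 0.429). Both genes lay above Control in all 3 LPS+Pilo libraries, with mean TPM ratios of 1.57 for C1ra and 1.55 for C2. Such a separation was found for 14.9% of all tested genes (30.5% in either direction). C2 was under 1 TPM in every Control library and could pass the filter only with the LPS+Pilo libraries. Its separation was therefore partly set by the filter and is a description. For C1ra the groups nearly touched, at 1.78 TPM in LPS+Pilo replicate 3 and 1.77 TPM in Control replicate 1. C4a and C4b, near-identical genes between which reads may be shared, were at most 0.15 and 0.29 TPM. Cfd, which encodes the protease that cleaves factor B, was at most 0.20 TPM. The terminal genes C6, C7, C8a and C8b were listed at 0 throughout; Hc, the mouse C5 gene, was at most 0.01 TPM, C9 at most 0.28 TPM and C8g 0.04 to 1.07 TPM. C5ar2, the second C5a receptor gene, was at 0.25 to 0.54 TPM and not tested. Vsig4 and Cr2, further receptors for C3 fragments, were listed at 0.

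The genes with the most similar profiles were found by the root mean square difference of centred log2(TPM + 1) over the 9 libraries. For C3 the nearest gene was Itgam (0.0811), followed by Lcp2 (0.112), which encodes the adaptor SLP-76, Lilr4b (0.140), an immunoglobulin-like receptor gene with a close paralog, the cyclooxygenase gene Ptgs2 (0.159) and the kinase gene Pim1 (0.163). For the mean of the 3 C1q genes the nearest were the hyaluronidase gene Hyal1 (0.0918), Rab3il1 (0.0953), the GMP reductase gene Gmpr (0.0963), the integrin gene Itgb4 (0.101) and Rtn4rl1 (0.105). Gmpr was at 51.2 TPM in LPS+Pilo, 55.7 TPM in LPS and 110 TPM in Control. Hyal1 was at 2.06 TPM in LPS+Pilo, 2.43 TPM in LPS and 5.53 TPM in Control. Itgb4 was at 0.17 TPM in LPS+Pilo, 0.14 TPM in LPS and 1.35 TPM in Control. Rtn4rl1 was at 0.22 TPM in LPS+Pilo, 0.18 TPM in LPS and 1.33 TPM in Control. Itgb4 and Rtn4rl1 could pass the filter only through the Control libraries, where they were high, so their likeness to C1q was partly set by the filter. Ptgs2 was at 4.24 TPM in LPS+Pilo, 4.63 TPM in LPS and 0.743 TPM in Control. It could pass only with treated libraries, where it was high, so its likeness to C3 was partly set by the filter too. Low values are compressed by the added 1, so Gmpr ranked near C1q although its relative change in TPM was smaller. The ratio of summed C1q TPM, LPS over Control, was 0.330. These ranks describe 9 libraries and carry no test.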

How the data were processed

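The authors deposited 1 table of TPM per gene for the 9 libraries, rounded to 2 decimals, from TruSeq libraries of TRIzol-extracted total RNA per the labels' protocols. The submitters' processing notes name fastp 0.19.5, STAR 2.7.1a, DESeq2 1.24.0 and build GRCm39. Neither the program behind TPM nor its annotation and strand setting is given in the sources used here, so reads of paralogs and overlapping genes may be misassigned. TPM are shares and hold no depth. Symbols came by Ensembl identifier from GENCODE M21 (52081 genes matched). Promoters came from RefSeq on GRCm38.p6 and were not combined with file coordinates.

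The fit used limma 3.58.1 under R 4.3.3 on all 9 libraries, with a mean for each group and a variance trend (6 residual degrees of freedom), on log2(TPM + 1) of genes reaching 1 TPM in 3 or more libraries. The script was tested on simulated data. All 3 pairs of groups were compared, two-sided, with Benjamini-Hochberg adjustment over all tested genes. The alternatives were a pseudocount of 0.1, no filter, a filter of 5 TPM, 2 scalings, only the groups compared, no trend, a replicate block and each library left out. Named were all 9 members, each further complement gene called and the 5 nearest profiles; further complement genes named where they did not pass were chosen after their values were seen. The members and lists were chosen with earlier results of these data known.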

Additional observations from a re-analysis of the deposited data

How the results depend on the processing

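Over 16 or 17 alternatives per gene, C1qc, C3, Cfp, Itgam and Clu kept their direction and call in LPS against Control and in LPS+Pilo against Control, and C3ar1 in LPS against Control; the filter of 5 TPM removed C1qb and C1qc. The count of genes called in LPS against Control was 1516 with quantile normalization, 1389 with equal medians, 486 with only the 2 groups and 414 to 1020 with 1 library left out. For LPS+Pilo against LPS it was 1 with no filter, 1 with quantile normalization, 0 with equal medians, 3 with only the 2 groups, 3 without the trend, 1 with the replicate block and 0 to 6 with 1 library left out. For LPS+Pilo against Control it was 1726 with quantile normalization and 642 to 1286 with 1 library left out. Members called in LPS against Control numbered 4 to 6 with 1 library left out. In LPS+Pilo against Control they numbered 3 with the filter of 5 TPM and 3 to 6 with 1 library left out. In LPS+Pilo against LPS the sign of uncalled differences turned for C1qb without LPS replicate 1 (-0.03), LPS replicate 3 (-0.0022) or LPS+Pilo replicate 3 (-0.10), for C1qc without LPS replicate 1 (0.07) or LPS+Pilo replicate 2 (0.05) and for C5ar1 without LPS replicate 1 (0.07). With 1 library left out these differences ran from -0.104 to 0.131 for C1qb, -0.229 to 0.0666 for C1qc and -0.318 to 0.0667 for C5ar1. The cause was not tested.

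Same-numbered libraries did not deviate together: between LPS and Control the correlations of deviations from the group means were 0.165, -0.225 and 0.158. With the replicate block 6 members passed in LPS against Control and 4 in LPS+Pilo against Control, where C5ar1 had an adjusted p of 0.0527. TPM carry no counts, so the precision of values near or under 1 TPM, such as C1qa and Cfb, is unknown.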
